A study of Mus musculus with 18 samples.

Results

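The genes described here are 36 autophagy and lysosome genes, chosen as a fixed list of symbols that covers each step of the pathway, and followed in the RNA of mouse hindlimb skeletal muscle at 3 ages. All 36 had a row among the 23420 gene rows of the RNA-seq table, and all 36 passed the filter on low values (a mean normalized count of at least 10 over the 9 libraries), with normalized counts between 236 and 36015. The RNA came from C57BL/6J females at 2 months (2-m muscle), 20 months (20-m muscle) and 28 months (28-m muscle), with 3 mice per age, 1 library per mouse and no treatment named at any age. Captured methylated DNA (MBD-seq, in which a methyl-CpG binding domain pulls down methylated fragments) was counted in 500-base bins from muscle and from splenic T cells of mice of these ages, as 1 pool of 3 mice per age and tissue. Whole hindlimb muscle holds fibres, blood, fibroblasts and other cells, and in bulk RNA fewer cells of a type cannot be told apart from less RNA per cell.

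Autophagy wraps a piece of cytoplasm in a double membrane, the autophagosome, and delivers it to the lysosome, where acid hydrolases degrade it. The Ulk1 complex starts the process, a lipid kinase complex around Becn1 and Pik3c3 marks the site, ubiquitin-like conjugation attaches LC3 and GABARAP proteins to the growing membrane, and cargo receptors tie ubiquitinated proteins or mitochondria to those proteins. In skeletal muscle the pathway clears damaged mitochondria and protein aggregates, it is induced by fasting and denervation through FoxO transcription factors, and both its excess and its loss waste muscle. Tfeb and Tfe3 are transcription factors that drive lysosomal and autophagy genes when they enter the nucleus, so their mRNA level is not a measure of their activity.

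Reads assigned to genes ranged from 20203833 to 71115244 per library. The libraries numbered 3 differed from the others at every age: the ribosomal RNA precursor gene Rn45s took 8.81% to 10.4% of their gene reads against 24.0% to 30.4% in the 6 others. The 8 muscle fibre markers were present in every library, and their summed level was lower in each 28-m library than in each 2-m library, with 2 of the 8 called lower and 1 higher in both aged groups. Marker RNA of slow fibres and of other cells differed between ages. The summed level of 6 slow fibre markers was 8247, 92906 and 20119 (2-m muscle), 120539 to 213993 (20-m muscle) and 157243 to 194236 (28-m muscle), and all 6 were called higher in both aged groups. Replicate 1 of 2-m muscle stood apart, with a summed level of 10 neutrophil and marrow markers of 5452 against 18.7 to 86.1 in the 8 other libraries, of 11 bone and cartilage markers of 4511 against 596 and 624 in the other 2-m libraries and 197 to 325 in the 6 aged libraries (3 and 4 of the 9 that passed the filter were called lower in 20-m and 28-m muscle), and of 6 red blood cell markers of 9981 against 1701 to 3882. Summed fibroblast markers (7 genes) were 39314 to 72370 (2-m muscle), 20492 to 22962 (20-m muscle) and 20728 to 27859 (28-m muscle), and summed macrophage markers (12 genes) 4088 to 5704, 3729 to 3966 and 3989 to 5524. Summed adipocyte markers (7 genes) were 7455 to 11323, 4888 to 5485 and 4761 to 6996. Summed Schwann cell markers (6 genes) and summed B and plasma cell markers (7 genes) were lower in each 20-m library than in each 2-m library, with 2 and 1 of their genes called lower. The B and plasma cell genes did not move together: 4 of the 7 had a log2 fold change above 0, with a median of 0.10. Of these 9 lists besides the fibre markers, 1 marker was at 0 in every library (Hba-a1, a red blood cell gene), and the part of these differences in the results below was not tested.

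Of the 36 genes, 11 changed in at least 1 of the 3 comparisons of age and 25 passed the test in none. In 20-m against 2-m muscle, 8 were called higher (22.2% of members, against 9.42% of all 13178 genes tested) and 1 lower (2.78% against 7.13%). In 28-m against 2-m muscle, 6 were called higher (16.7% against 7.53%) and 2 lower (5.56% against 6.24%), and in 28-m against 20-m muscle none was called higher (background 0.212%) and 1 lower (2.78% against 0.167%). The members were chosen with earlier results of these data known, and the difference of these shares from those of all genes was not tested. A call is a Benjamini-Hochberg adjusted p under 0.05 from limma over all genes tested, on log2(normalized count + 1). The 2 comparisons with 2-m muscle share its 3 libraries, so a low or high value there enters both. Changes were small: no member changed by over 2-fold between any 2 ages, so none passed the rule of a fold over 2 with an unadjusted p under 0.05, which 5.17%, 5.14% and 1.31% of all genes passed in the 3 comparisons in that order. The median log2 fold change of the 36 members was 0.05, 0.02 and -0.07, beside -0.02, -0.01 and 0.00 over all genes tested.

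**Figure D1:**
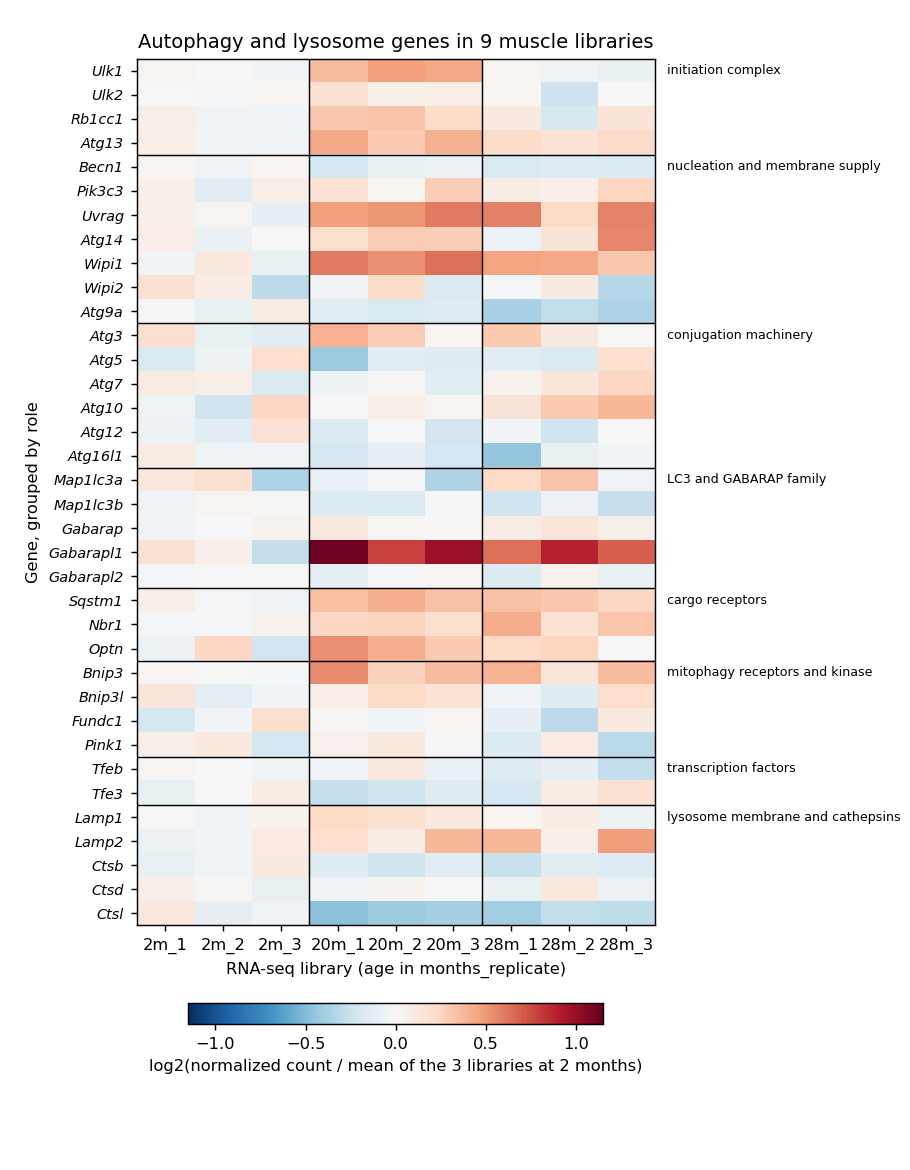
Each row is 1 of the 36 genes, grouped by role, and each column 1 RNA-seq library. Colour gives log2 of the normalized count over the mean of the 3 libraries of 2-m muscle, red for higher and blue for lower; Gabarapl1 is the darkest red row, reaching 1.11 in replicate 1 of 20-m muscle, and Ctsl is blue in all 6 aged libraries.

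The 11 called members followed 6 patterns. The 5 genes Uvrag, Wipi1, Gabarapl1, Sqstm1 and Bnip3 were called higher at both later ages against 2 months. Atg13 and Optn were called higher in 20-m muscle but not in 28-m muscle, and Nbr1 the other way round. Ulk1 was called higher in 20-m muscle and lower in 28-m than in 20-m muscle, Ctsl lower at both later ages and Atg9a lower in 28-m muscle. Ulk1 was the 1 member for which 28-m and 20-m muscle themselves differed by the test, so for the others a call at 1 age alone does not show that the ages differed. Leaving out the 3 libraries numbered 3 left 5, 2 and 0 members called in the 3 comparisons in place of 9, 8 and 1. Of single libraries, leaving out replicate 1 of 28-m muscle left 3 of the 8 members called in 28-m against 2-m muscle, and leaving out replicate 3 of 28-m muscle or replicate 1 or 3 of 2-m muscle left 5; in 20-m against 2-m muscle the count stayed between 7 and 11 without each library in turn. Scaling the libraries to equal sums, Rn45s included, kept 2 of the 18 calls, those of Gabarapl1 at both ages, and so ended those of Ulk1, Wipi1, Sqstm1, Ctsl and the others; with Rn45s left out of the sums, a setting chosen after seeing the data, 16 of the 18 were kept.

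**Figure D2:**
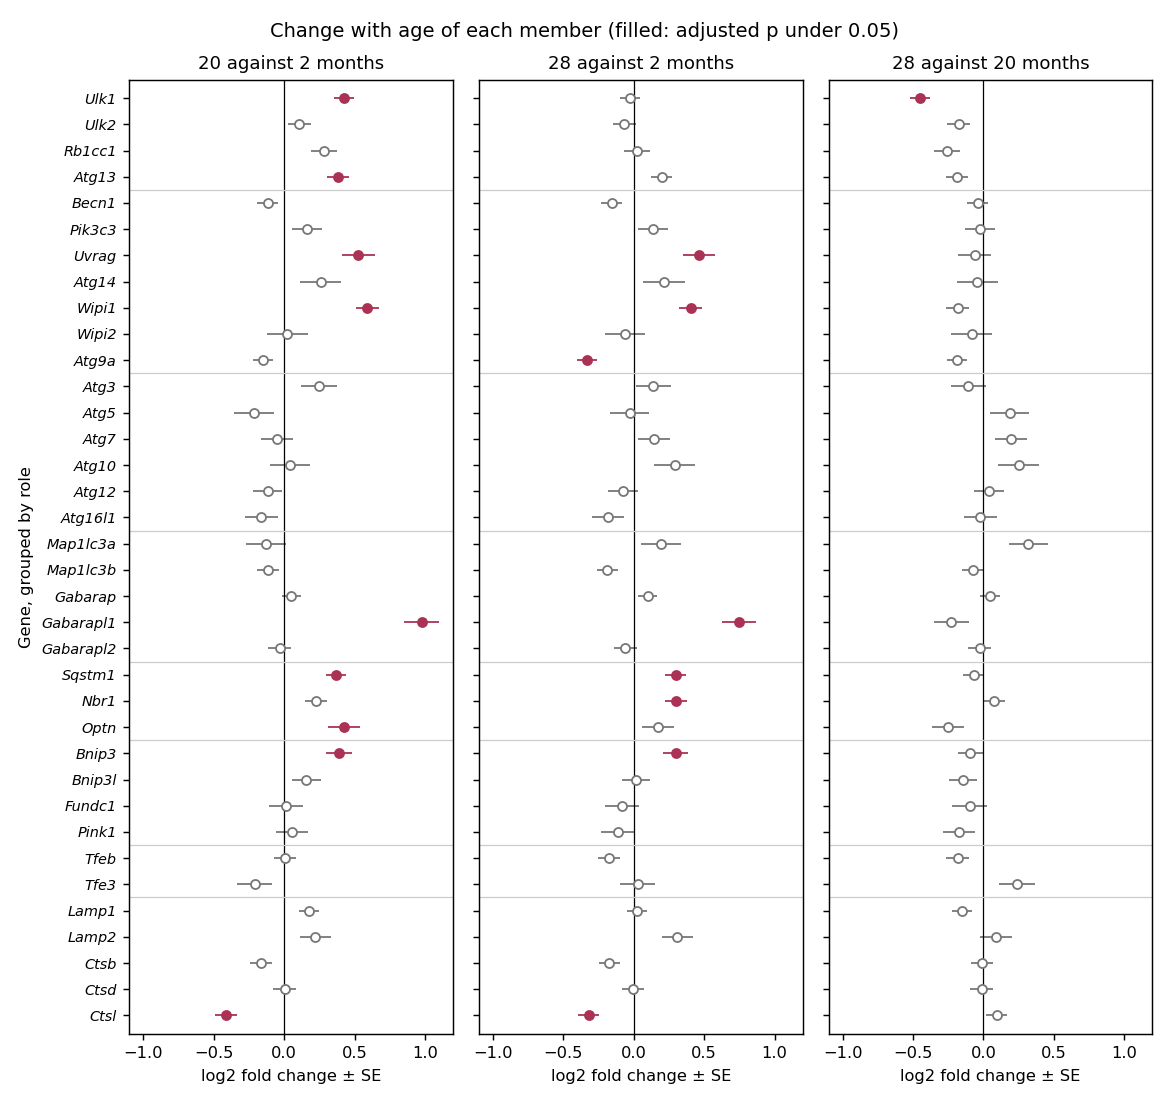
Log2 fold change of each member with its standard error (horizontal bar) in the 3 comparisons, on a common axis, with genes grouped by role. Filled red points passed an adjusted p of 0.05; Gabarapl1 lies farthest to the right in both comparisons with 2-m muscle, and in 28-m against 20-m muscle Ulk1 is the filled point.

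The initiation complex had 2 of its 4 members called higher in 20-m muscle and none in 28-m muscle; counts in groups this small cannot be read against the 9.42% and 7.53% of all genes called higher, here and in the groups that follow. Ulk1 (chr5:110784489-110810081, minus strand, 28 exons, mm10), the kinase that starts autophagosome formation, had normalized counts of 3339, 3258 and 3203 (2-m muscle), 4179, 4520.2 and 4451 (20-m muscle) and 3330.3, 3174 and 3107 (28-m muscle), given here and below for replicates 1, 2 and 3 in that order. The 3 libraries of 20-m muscle lay above all 6 others, which overlapped. Ulk1 was 1.34-fold higher in 20-m than in 2-m muscle (log2 fold change 0.42 ± 0.07 (SE), adjusted p = 0.00169) and 1.37-fold lower in 28-m than in 20-m muscle (log2 fold change -0.45 ± 0.07 (SE), adjusted p = 0.0137), while 28-m against 2-m muscle gave -0.03 (adjusted p = 0.828). The second call was lost without any 1 of 20-m replicates 1, 2 and 3 and 28-m replicate 3 (adjusted p = 0.0553 to 0.0762). Atg13 (chr2:91674612-91710592, minus strand, 17 exons), the subunit that bridges Ulk1 to its scaffold, counted 1665, 1549 and 1543 (2-m muscle), 2154, 1954 and 2100.3 (20-m muscle) and 1837, 1771 and 1844 (28-m muscle). Its 2-m libraries lay below all 6 aged libraries, with log2 fold change 0.38 ± 0.08 (SE), adjusted p = 0.00542 in 20-m muscle and 0.20 (adjusted p = 0.112) in 28-m muscle. The scaffold Rb1cc1 (also called FIP200) moved by 0.28 (adjusted p = 0.052) and 0.02 (adjusted p = 0.892), and its 20-m change passed with a term for the libraries numbered 3 (adjusted p = 0.0386). The second kinase Ulk2 moved by 0.11 (adjusted p = 0.407) and -0.07 (adjusted p = 0.627), in 20-m and 28-m against 2-m muscle.

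Among the 7 genes of nucleation and membrane supply, Uvrag and Wipi1 rose and Atg9a fell, while the core lipid kinase genes Becn1 and Pik3c3 were not called. Wipi1 (chr11:109573521-109611389, minus strand, 13 exons), which binds the lipid PI3P on the forming membrane, counted 1727, 1915 and 1662 (2-m muscle), 2671, 2553 and 2744 (20-m muscle) and 2416, 2404 and 2197 (28-m muscle). All 6 aged libraries lay above all 2-m libraries, 1.5-fold higher in 20-m muscle (log2 fold change 0.59 ± 0.08 (SE), adjusted p = 0.000523) and 1.32-fold in 28-m muscle (log2 fold change 0.40 ± 0.08 (SE), adjusted p = 0.00634). Its relative Wipi2 gave 0.02 (adjusted p = 0.941) and -0.06 (adjusted p = 0.817). Uvrag (chr7:98886743-99141144, minus strand, 15 exons), a partner of Becn1 in endosome and autophagosome maturation, had 537, 529 and 482 (2-m muscle), 714, 734 and 782 (20-m muscle) and 772, 605 and 768 (28-m muscle), again with no overlap between 2-m and aged libraries. It was higher by log2 fold change 0.53 ± 0.12 (SE), adjusted p = 0.00897 in 20-m muscle and by log2 fold change 0.46 ± 0.12 (SE), adjusted p = 0.0189 in 28-m muscle, and the latter call was lost without any 1 of 2-m replicate 3 and 28-m replicates 1 and 3 (adjusted p = 0.0602 to 0.0844). Atg14, the other Becn1 partner, which directs the kinase to autophagosome formation, gave 0.26 (adjusted p = 0.254) and 0.21 (adjusted p = 0.373). Atg9a (chr1:75180861-75192010, minus strand, 16 exons), the membrane protein of the vesicles that seed the autophagosome, counted 8066, 7724 and 8657 (2-m muscle), 7452, 7228 and 7348 (20-m muscle) and 6275, 6712 and 6387 (28-m muscle). Each age was lower than the one before without overlap, with -0.15 (adjusted p = 0.17) in 20-m and log2 fold change -0.33 ± 0.07 (SE), adjusted p = 0.00828 in 28-m against 2-m muscle. Becn1 counted 1848, 1771 and 1852 (2-m muscle), 1588, 1716 and 1745 (20-m muscle) and 1622, 1641 and 1638 (28-m muscle), so that the highest aged library stayed under the lowest 2-m library, but the change did not pass the test (-0.12 (adjusted p = 0.314) and -0.16 (adjusted p = 0.189)). Becn1 shares 444 exonic bases (21.6% of its transcript) with Cntd1 on the opposite strand, where the strand of a read was not stated to be used in counting.

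None of the 6 genes of the conjugation machinery (Atg3, Atg5, Atg7, Atg10, Atg12 and Atg16l1) was called in any comparison, and none had an unadjusted p under 0.05 either. Their log2 fold changes lay between -0.22 and 0.25 in 20-m and between -0.18 and 0.29 in 28-m against 2-m muscle. These are among the least abundant members per length: Atg7, the E1-like enzyme of both conjugation arms, stood at 136 normalized counts per kilobase of transcript in 2-m muscle, and Atg3, the E2-like enzyme for LC3, at 449.6. The promoter of Atg3 (chr16:45158579-45158878, plus strand, GRCm38.p6, the build also called mm10) is shown because it holds the longer CLEAR-type motif TCACGTGA, the palindrome around CACGTG that Tfeb and Tfe3 are known to bind; the capitals mark matches of CACGTG and TCACGTGA, and the sequence, like the other promoters below, runs 5′ to 3′ on the gene's strand from 250 bases before to 50 after the RefSeq start.
Atg3: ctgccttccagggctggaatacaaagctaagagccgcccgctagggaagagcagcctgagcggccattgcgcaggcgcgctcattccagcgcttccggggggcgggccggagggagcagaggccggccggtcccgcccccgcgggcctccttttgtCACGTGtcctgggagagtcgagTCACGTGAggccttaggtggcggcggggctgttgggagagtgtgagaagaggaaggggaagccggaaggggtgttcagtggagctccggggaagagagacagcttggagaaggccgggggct

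The ubiquitin-like LC3 and GABARAP genes split: Gabarapl1 rose and the 4 others did not pass the test. Gabarapl1 (chr6:129533192-129542331, plus strand, 4 exons), a GABARAP family member that is attached to autophagosome membranes, counted 1574, 1447 and 1148 (2-m muscle), 3008, 2399 and 2754 (20-m muscle) and 2150.0, 2573 and 2237 (28-m muscle). Every aged library was above every 2-m library. It was 1.97-fold higher in 20-m muscle (log2 fold change 0.98 ± 0.12 (SE), adjusted p = 0.000284) and 1.68-fold in 28-m muscle (log2 fold change 0.75 ± 0.12 (SE), adjusted p = 0.00182), the largest changes of any member. Both calls held under all 22 alternative settings of the fit, though neither change passed the rule of a fold over 2. Per kilobase of transcript its level went from 784 normalized counts (2-m) to 1534 (20-m) and 1308 (28-m muscle), still below Gabarap (3608, 3737 and 3861) at each age. Map1lc3a, an LC3 form, counted 5503, 5704 and 3961 (2-m muscle), 4762, 5018 and 3987 (20-m muscle) and 5932, 6343 and 4911 (28-m muscle), lowest in the library numbered 3 at each age, with -0.13 (adjusted p = 0.573) and 0.19 (adjusted p = 0.412) against 2-m muscle. In 28-m against 20-m muscle Map1lc3a gave 0.32 (adjusted p = 0.452), which passed in limma with a replicate block (adjusted p = 0.0457). For Map1lc3b, the LC3 form most used as an autophagosome marker, the counts were 6174, 6527 and 6458 (2-m muscle), 5718, 5701 and 6305 (20-m muscle) and 5454, 6077 and 5313 (28-m muscle), with -0.11 (adjusted p = 0.342) and -0.19 (adjusted p = 0.131). Gabarap and Gabarapl2 stayed within -0.06 and 0.10 on the log2 scale in both comparisons. Reads aligned to more than 1 place have a row of their own in the deposited table, so reads shared by near-identical copies of this family may be missing from these values. Gabarapl1 shares 47 exonic bases (2.65%) with 1700101I11Rik and Map1lc3b 58 (2.36%) with Zcchc14, on opposite strands. The Gabarapl1 promoter (chr6:129532942-129533241, plus strand) is shown as that of the member with the largest change; it holds none of the 3 motifs searched, so no letter is in capitals.
Gabarapl1: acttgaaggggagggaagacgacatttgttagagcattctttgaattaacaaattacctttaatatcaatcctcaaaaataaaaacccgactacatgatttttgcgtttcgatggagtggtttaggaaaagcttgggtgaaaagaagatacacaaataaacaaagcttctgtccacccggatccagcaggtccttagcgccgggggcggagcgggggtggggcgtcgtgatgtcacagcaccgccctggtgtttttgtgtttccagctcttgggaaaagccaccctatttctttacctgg

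All 3 cargo receptors had higher means in both aged groups, and each was called in at least 1 comparison. Sqstm1 (chr11:50200152-50210820, minus strand, 8 exons), which encodes p62 and carries ubiquitinated proteins into autophagosomes, was the third most abundant member per kilobase (8647 in 2-m muscle) and counted 18337, 17285 and 17036 (2-m muscle), 22259.9, 23387 and 22223 (20-m muscle) and 22183, 21759 and 20698 (28-m muscle). The aged libraries did not overlap the 2-m libraries, with log2 fold change 0.37 ± 0.07 (SE), adjusted p = 0.00512 in 20-m and log2 fold change 0.30 ± 0.07 (SE), adjusted p = 0.0179 in 28-m muscle; the second call was lost without any 1 of 2-m replicate 3 and 28-m replicate 1 (adjusted p = 0.0539 to 0.0747). Nbr1 (chr11:101552654-101581951, plus strand, 24 exons), a related receptor, had 4413, 4409 and 4646 (2-m muscle), 5290.4, 5352 and 5091 (20-m muscle) and 6031, 5023 and 5594 (28-m muscle). The 6 aged libraries again lay above the 2-m libraries, but the 20-m change did not pass (0.22 (adjusted p = 0.0692); adjusted p = 0.0478 with a term for the libraries numbered 3) and the 28-m change did (log2 fold change 0.30 ± 0.08 (SE), adjusted p = 0.0232), until a library was left out: it was lost without any 1 of 2-m replicates 1 and 2 and 28-m replicates 1 and 3 (adjusted p = 0.0528 to 0.106). Optn (chr2:5020642-5064117, minus strand, 14 exons), a receptor for mitochondria and bacteria, varied more within an age, at 2525, 3126 and 2279.8 (2-m muscle), 3802, 3526 and 3254 (20-m muscle) and 3095, 3129 and 2657 (28-m muscle). The 20-m libraries were all above the 2-m libraries and the 28-m libraries overlapped them, with log2 fold change 0.43 ± 0.11 (SE), adjusted p = 0.0242 in 20-m and 0.17 (adjusted p = 0.359) in 28-m muscle. The 20-m call was lost without any 1 of 2-m replicates 1 and 3 and 20-m replicates 1 and 2 (adjusted p = 0.0724 to 0.107).

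Of the 4 mitophagy genes, 1 was called. Bnip3 (chr7:138890836-138909506, minus strand, 6 exons), a mitochondrial outer membrane receptor that binds LC3 directly and is induced by hypoxia and FoxO3, counted 8499, 8391 and 8307 (2-m muscle), 12242, 10098 and 10765 (20-m muscle) and 11114, 9223 and 10713 (28-m muscle). The 2-m libraries, at 8399 ± 96 (SD, n = 3), lay below all aged libraries, which spread more widely. The change was log2 fold change 0.39 ± 0.09 (SE), adjusted p = 0.0124 in 20-m muscle, lost without 20-m replicate 1 (adjusted p = 0.0707), and log2 fold change 0.30 ± 0.09 (SE), adjusted p = 0.0473 in 28-m muscle, lost without any 1 of 2-m replicates 1, 2 and 3, 20-m replicates 2 and 3 and 28-m replicates 1 and 3 (adjusted p = 0.0523 to 0.174) and by edgeR's quasi-likelihood test on the recovered reads. Its homologue Bnip3l (Nix) gave 0.16 (adjusted p = 0.312) and 0.01 (adjusted p = 0.95), and the hypoxia-linked receptor Fundc1 0.01 (adjusted p = 0.956) and -0.09 (adjusted p = 0.69). Pink1, the kinase that labels depolarised mitochondria, was the most abundant member per kilobase (14049.5 in 2-m muscle) and counted 34869, 36015 and 28882 (2-m muscle), 34442, 35993 and 32873 (20-m muscle) and 29842, 35588 and 26823 (28-m muscle). Its groups overlapped (0.06 (adjusted p = 0.777) and -0.12 (adjusted p = 0.552)) and the library numbered 3 was the lowest at each age. The Bnip3 promoter (chr7:138909457-138909756, minus strand) is shown because it is 1 of 2 promoters among the called members with CACGTG, in capitals.
Bnip3: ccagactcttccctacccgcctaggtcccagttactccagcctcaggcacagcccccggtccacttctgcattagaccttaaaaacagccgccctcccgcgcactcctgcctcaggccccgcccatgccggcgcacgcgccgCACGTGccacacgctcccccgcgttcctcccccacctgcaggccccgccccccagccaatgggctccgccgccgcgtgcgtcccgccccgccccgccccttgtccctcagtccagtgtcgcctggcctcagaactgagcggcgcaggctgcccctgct

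**Figure D3:**
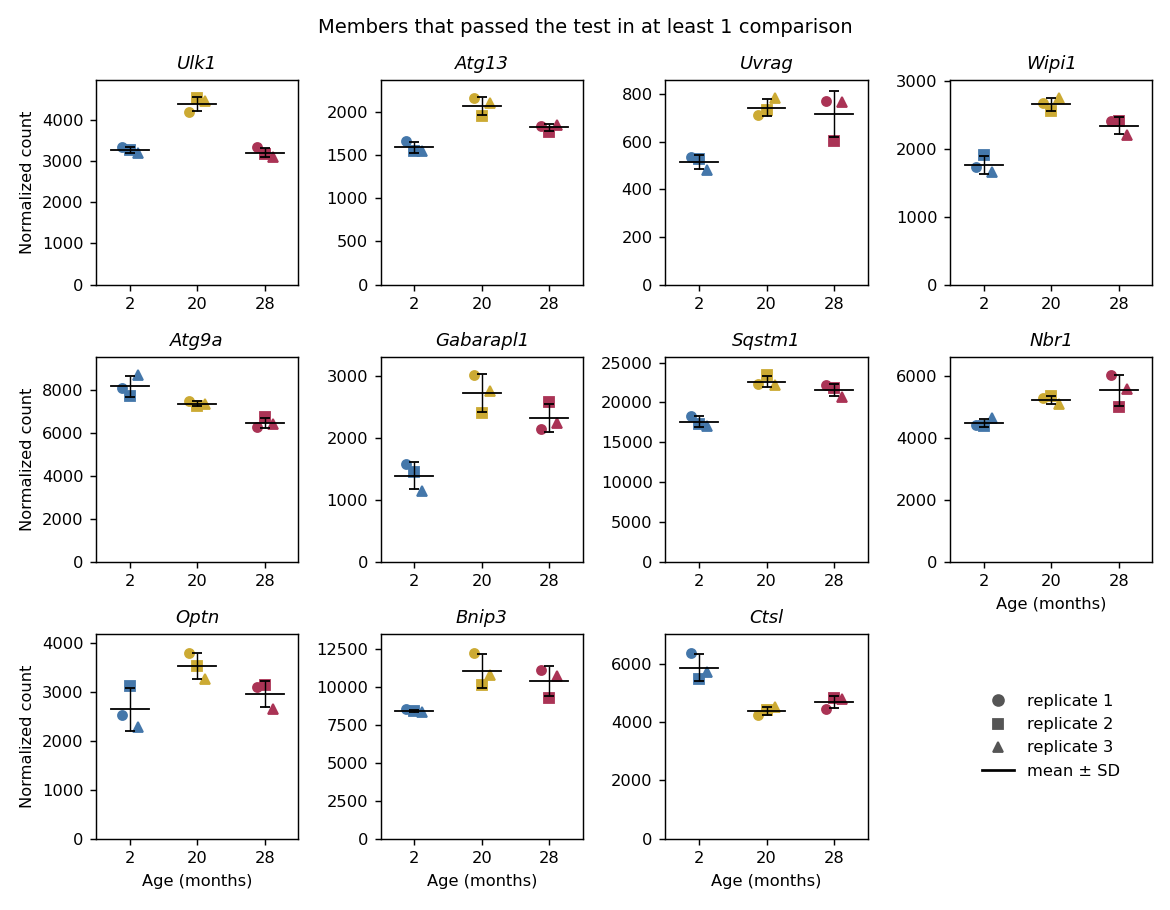
Normalized counts of the 11 members called in at least 1 comparison, by age, with 1 symbol per library (shape gives the replicate number), the mean (long bar) and the SD (error bar, n = 3), each axis starting at 0. Ulk1 is high in 20-m muscle alone, Gabarapl1 is 2720.1 ± 306 in 20-m against 1389 ± 219 in 2-m muscle, and Ctsl and Atg9a lie lower with age.

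The transcription factors Tfeb and Tfe3 were not called. Tfeb counted 3461, 3376 and 3293 (2-m muscle), 3303, 3679.9 and 3206 (20-m muscle) and 3038, 3159.9 and 2773 (28-m muscle), with overlapping groups in 20-m muscle (0.01 (adjusted p = 0.969)) and the 3 libraries of 28-m muscle below all 2-m libraries without passing the test (-0.18 (adjusted p = 0.17)). Per kilobase Tfe3 stood at 125 in 2-m muscle, under Tfeb at 1486, and it gave -0.21 (adjusted p = 0.281) and 0.03 (adjusted p = 0.918). Tfeb has 3 starts in RefSeq, and they differ in methylated DNA. Around the start of its RefSeq Select transcript the mean MBD-seq level per bin in muscle was 74, 46 and 25.7 normalized counts at 2, 20 and 28 months, the highest of any member at each age, while the 2 upstream starts were at 0 in muscle at 2 and 20 months, at 2.23 at 28 months and at 0 in T cells at all 3 ages. The promoters of the farthest upstream start (chr17:47736787-47737086, plus strand) and of the Select start (chr17:47785494-47785793, plus strand) are shown with every CpG in capitals; they hold 22 and 6 CpGs.
Tfeb upstream: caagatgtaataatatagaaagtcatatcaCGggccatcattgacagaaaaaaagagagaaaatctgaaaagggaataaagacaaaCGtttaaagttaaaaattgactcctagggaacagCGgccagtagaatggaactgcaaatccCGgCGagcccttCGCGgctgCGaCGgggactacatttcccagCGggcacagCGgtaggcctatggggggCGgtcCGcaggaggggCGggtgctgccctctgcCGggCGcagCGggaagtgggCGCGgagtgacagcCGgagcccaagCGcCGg
Tfeb Select: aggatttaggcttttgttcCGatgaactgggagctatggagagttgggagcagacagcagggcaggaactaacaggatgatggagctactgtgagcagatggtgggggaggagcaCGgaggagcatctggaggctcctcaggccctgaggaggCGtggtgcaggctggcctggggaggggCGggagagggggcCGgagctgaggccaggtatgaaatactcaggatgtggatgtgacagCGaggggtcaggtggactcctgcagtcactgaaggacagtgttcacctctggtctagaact

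Of the 5 genes of the lysosome membrane and the cathepsins, Ctsl fell and the 4 others were not called. Ctsl (chr13:64361890-64370520, minus strand, 8 exons), the lysosomal cysteine protease cathepsin L, counted 6388, 5494 and 5723 (2-m muscle), 4239, 4432 and 4511 (20-m muscle) and 4446, 4828 and 4792 (28-m muscle). All 6 aged libraries lay below the 2-m libraries, 1.33-fold lower in 20-m muscle (log2 fold change -0.41 ± 0.08 (SE), adjusted p = 0.00369) and 1.25-fold in 28-m muscle (log2 fold change -0.32 ± 0.08 (SE), adjusted p = 0.0159). Replicate 1 of 2-m muscle, the library with marrow and bone markers, held the highest Ctsl count, and the 28-m call was lost without any 1 of 2-m replicate 1 and 28-m replicate 1 (adjusted p = 0.072 to 0.0737); the 20-m call held without each library in turn. Summed fibroblast markers and summed adipocyte markers were also lower in all 6 aged libraries than in the 2-m libraries, and their part in the Ctsl difference was not tested. Ctsb, cathepsin B, counted 11844, 12363 and 13595 (2-m muscle), 11442, 10745 and 11530.1 (20-m muscle) and 10564, 11529 and 11383 (28-m muscle) (-0.16 (adjusted p = 0.169) and -0.17 (adjusted p = 0.162)), and it shares 774 exonic bases (16.3%) with Fdft1 on the opposite strand. Ctsd, the aspartic protease cathepsin D and second in level per kilobase (11396 in 2-m muscle), counted 22770.4, 22118 and 20649 (2-m muscle), 21262, 22520.1 and 21942 (20-m muscle) and 20732, 23792 and 20809.9 (28-m muscle). Its log2 fold changes were the closest to 0 of the 5 (0.00 (adjusted p = 0.974) and -0.01 (adjusted p = 0.971)). Lamp1, the main glycoprotein of the lysosomal membrane, counted 17586, 17040.0 and 18029 (2-m muscle), 20526, 19849 and 19103 (20-m muscle) and 17991, 18588 and 16907 (28-m muscle), above the 2-m libraries in every 20-m library without passing the test (0.18 (adjusted p = 0.12)), and gave 0.02 (adjusted p = 0.879) in 28-m muscle. Lamp2, needed for autophagosome fusion, gave 0.22 (adjusted p = 0.195) and 0.31 (adjusted p = 0.0855); it was highest in the library numbered 3 at each age, and its 28-m change passed with a term for those libraries (adjusted p = 0.0218). The 3 promoters below are Lamp1 (chr8:13158911-13159210, plus strand), with 4 matches of CACGTG, Ctsd (chr7:142387778-142388077, minus strand), with 2 and TCACGTGA around 1 of them, and Ctsl (chr13:64370471-64370770, minus strand), with 1 far from the start; matches are in capitals.
Lamp1: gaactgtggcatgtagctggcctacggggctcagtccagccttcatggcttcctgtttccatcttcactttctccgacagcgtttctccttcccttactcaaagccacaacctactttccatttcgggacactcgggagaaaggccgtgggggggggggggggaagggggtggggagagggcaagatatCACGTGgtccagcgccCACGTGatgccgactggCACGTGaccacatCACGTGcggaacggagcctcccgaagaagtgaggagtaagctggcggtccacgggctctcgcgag
Ctsd: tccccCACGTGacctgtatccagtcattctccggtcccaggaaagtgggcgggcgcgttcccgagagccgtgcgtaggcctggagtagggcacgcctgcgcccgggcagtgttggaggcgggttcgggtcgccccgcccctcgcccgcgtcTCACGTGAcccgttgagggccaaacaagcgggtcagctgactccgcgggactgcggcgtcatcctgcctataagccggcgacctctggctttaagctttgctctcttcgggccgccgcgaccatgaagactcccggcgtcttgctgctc
Ctsl: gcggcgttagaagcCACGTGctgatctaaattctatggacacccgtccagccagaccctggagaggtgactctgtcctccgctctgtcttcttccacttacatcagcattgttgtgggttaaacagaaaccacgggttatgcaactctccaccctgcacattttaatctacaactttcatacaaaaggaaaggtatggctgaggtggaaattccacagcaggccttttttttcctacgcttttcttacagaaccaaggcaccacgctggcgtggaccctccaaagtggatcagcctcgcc

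The promoter set used held 32 promoters for 28 of the 36 members. It had none for the other 8: Rb1cc1, Becn1, Pik3c3, Atg12, Atg16l1, Map1lc3a, Bnip3l and Ctsb. Of the 32, 8 (25%) held CACGTG, against 7.15% of all 32851 promoters of this length, and 2 (6.25%) held TCACGTGA, which contains it, against 0.974%. The 8 promoters with CACGTG were those of Atg14, Atg3, Atg5, Atg7, Bnip3, Lamp1, Ctsd and Ctsl. CACGTG contains a CpG, and member promoters were richer in CpG than all promoters, with a median of 19 against 7 per 300 bases. By call, 2 of 11 called and 6 of 17 not called had it. The FoxO-type motif TGTTTAC, searched on both strands as were the others, was in none of the 32 promoters and in 3.65% of all. These counts describe letters in a 300-base window and were not tested.

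Methylated DNA was low around the starts of most members. In muscle the median over the 36 members of the mean normalized count per bin, in the bins overlapping 500 bases either side of the start, was 1.36, 1.26 and 4.89 with rising age, beside 2.73, 2.53 and 5.74 over 12317 genes, and in T cells 1.52, 1.72 and 1.32 beside 3.05, 4.46 and 4.41. Within the transcribed regions beyond 2 kilobases from the start, 34 members had medians of 24.1, 21.0 and 19.3 in muscle and 24.6, 30.6 and 32.9 in T cells, beside 26.4, 23.8 and 20.8 and 28.1, 32.2 and 34.7 over 11199 genes. The values hold 1 column per age and tissue, each from 1 pool of mice, so no difference between ages has a biological replicate. For muscle a second round of capture from each age is labelled, the columns do not name the round they hold, and a comparison of the rounds was not made here. A window of 3 bins with 0 reads allows up to 0.910, 0.842 and 0.637 in muscle at the 3 ages (3 reads, counting error only).

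In muscle, member starts and gene starts in general were higher at 28 months. Of the 36 members, 19 were over 2-fold higher at 28 than at 2 months (on the mean count + 1; 36.2% of all genes) and 3 over 2-fold lower (4.27%), 20 were over 2-fold higher at 28 than at 20 months (39.1%) and none lower (1.71%), and 3 were over 2-fold higher at 20 than at 2 months (6.04%) and 6 lower (9.46%). With bins overlapping 1000 bases either side of the start, 12 members were over 2-fold higher at 28 than at 2 months (21.5% of all genes) and 1 lower (2.71%). With that window 0 were over 2-fold higher at 20 than at 2 months (2.58%). With a pseudocount of 0.25, 5 were over 2-fold higher (13.2%) and 10 lower (18.3%) at 20 than at 2 months. In T cells at 28 against 2 months 4 were higher (18.6%) and 7 lower (9.65%), which became 2 and 3 with the wider window and 6 and 13 with a pseudocount of 0.25. Over all 5128560 bins the muscle pool at 28 months had a median of 13.4 against 7.28 at 2 months and 8.42 at 20 months, and 1.17% of bins above 50 against 8.86% and 6.95%, so weak bins were higher and strong bins lower in that pool.

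**Figure D4:**
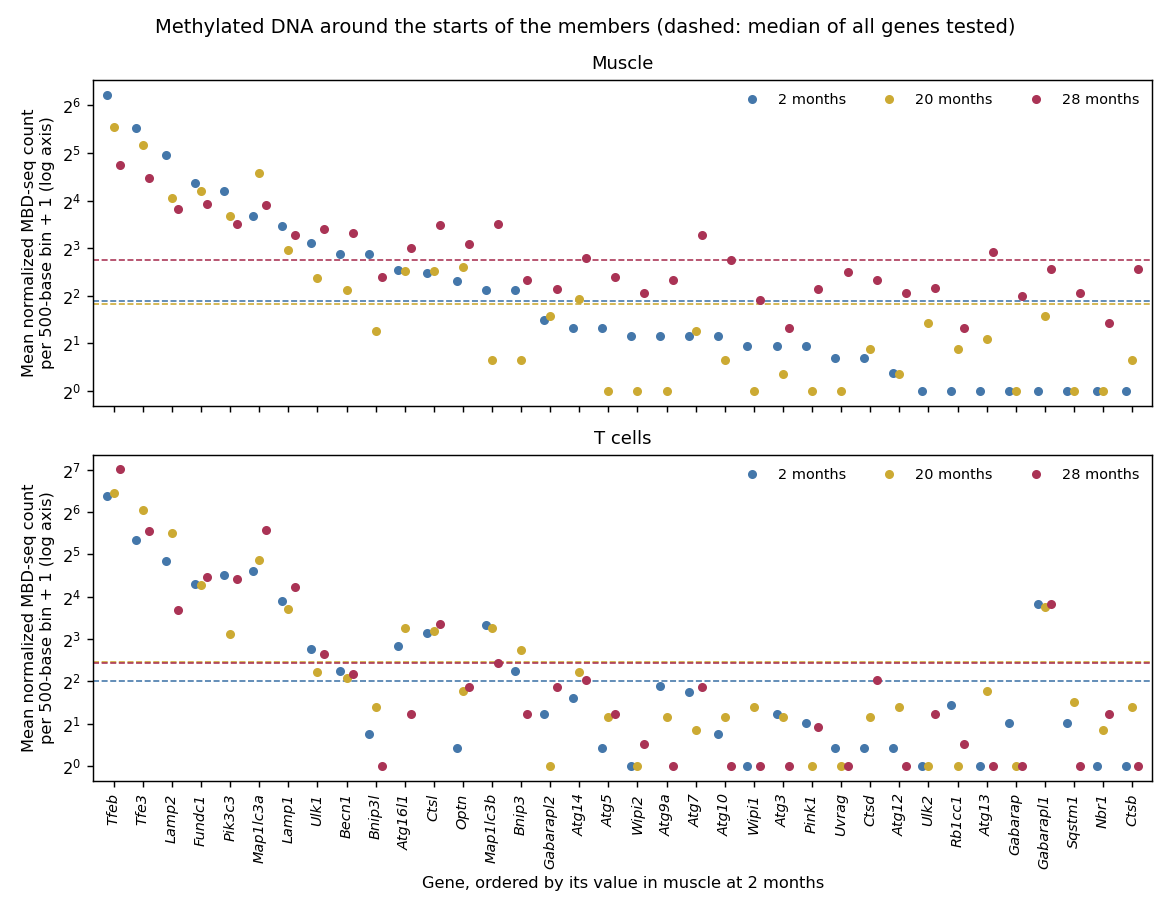
Mean normalized MBD-seq count per 500-base bin plus 1 (log axis) around the start of each member in muscle (top) and T cells (bottom), 1 pool per age, ordered by the value in muscle at 2 months; dashed lines give the median over 12317 genes. Tfeb, Tfe3 and Lamp2 are the highest in muscle at 2 months, and at 28 months low members sit higher and these 3 sit lower.

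Starts were mostly low in muscle at 2 months whether or not a member was called: the 11 called members had a median of 0.91 and a range of 0 to 7.58, and the 25 others a median of 1.52 and a range of 0 to 74, with 3 above 20 (Tfeb, Tfe3 and Lamp2). At the Tfeb Select start the muscle pool at 2 months had 74 (95% exact Poisson interval 65 to 83.9, 244 reads) and at 28 months 25.7 (95% exact Poisson interval 21.3 to 30.7, 121 reads), and in T cells the values were 82.2, 86 and 128 at 2, 20 and 28 months. Tfe3 and Lamp2, both on chromosome X in these females, stood at 45.2, 35.1 and 21.2 and at 30, 15.7 and 13.2 in muscle. Fundc1, also on chromosome X, stood at 19.7, 17.4 and 14.2. The Gabarapl1 start had 0, 1.96 and 4.89 in muscle and 13.2, 12.6 and 13.2 in T cells, and at 2 months the T cell pool gave 13.2 (95% exact Poisson interval 9.38 to 18, 39 reads) against no read in muscle. The other called members that rose at both ages gave 0.606, 0 and 4.67 (Uvrag), 0.91, 0 and 2.76 (Wipi1), 0, 0 and 3.19 (Sqstm1) and 3.34, 0.561 and 4.04 (Bnip3) in muscle, and Ctsl, which fell, 4.55, 4.77 and 10.2.

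Beyond the 36 members, 151 further genes of the pathway were listed and 147 passed the filter. In 20-m against 2-m muscle 20 were called higher (13.6%, against 9.42% of all genes) and 10 lower (6.80%, against 7.13%), and in 28-m against 2-m muscle 17 (11.6%, against 7.53%) and 10 (6.80%, against 6.24%). In 28-m against 20-m muscle 0 were called higher (0%, against 0.212%) and 2 lower (1.36%, against 0.167%). Of 32 upstream regulators, 8 were called higher (25%, against 9.42% of all genes) and 1 lower (3.12%, against 7.13%) in 20-m muscle. In 28-m muscle 7 were called higher (21.9%, against 7.53%) and 3 lower (9.38%, against 6.24%). The difference of these shares from those of all genes was not tested. Foxo1, a transcription factor that induces atrophy and autophagy genes in muscle, counted 1204, 1225 and 1092 (2-m muscle), 2871, 2237 and 2624 (20-m muscle) and 2224, 1969 and 1842 (28-m muscle). It was 2.19-fold higher in 20-m (log2 fold change 1.13 ± 0.11 (SE), adjusted p = 3.93e-05) and 1.71-fold higher in 28-m muscle (log2 fold change 0.77 ± 0.11 (SE), adjusted p = 0.000485), with no overlap with 2-m muscle. Foxo3, its paralogue, counted 662, 513 and 399.9 (2-m muscle), 1117, 921 and 952 (20-m muscle) and 899, 732 and 796 (28-m muscle), with 0.95 (adjusted p = 0.002) and 0.65 (adjusted p = 0.0184). Its 28-m call was lost without any 1 of 2-m replicate 3 and 28-m replicates 1 and 3 (adjusted p = 0.0524 to 0.0816). That call was also lost with libraries scaled to equal sums and without the 3 libraries numbered 3. Ddit4, a stress-induced inhibitor of the growth kinase mTORC1, went up and then down, at 1266, 1271 and 811 (2-m muscle), 2120.3, 2058 and 1715 (20-m muscle) and 474, 735 and 504 (28-m muscle). It was 1.79-fold higher in 20-m than in 2-m muscle (log2 fold change 0.84 ± 0.19 (SE), adjusted p = 0.0103), a call lost without 20-m replicate 1 (adjusted p = 0.0507), and 3.49-fold lower in 28-m than in 20-m muscle (log2 fold change -1.80 ± 0.19 (SE), adjusted p = 0.000713), and 28-m was also below 2-m muscle (-0.96 (adjusted p = 0.00546)).

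Of 41 other autophagy genes, 4 rose (9.76%, against 9.42% of all genes) and 1 fell (2.44%, against 7.13%) in 20-m muscle. In 28-m muscle 3 rose (7.32%, against 7.53%) and 1 fell (2.44%, against 6.24%). The shares called higher were thus near those of all genes, and the shares called lower were smaller, a difference that was not tested. Plekhm1, an adaptor for lysosome fusion, gave 0.37 (adjusted p = 0.00746) and 0.33 (adjusted p = 0.0154). Both calls, and every other call named in this paragraph, were lost with libraries scaled to equal sums, Rn45s included. Without the 3 libraries numbered 3 the 28-m calls of Plekhm1, Atp6v1a and Atp6v1h were lost. So were the 20-m calls of Pik3r4, Atg101 and Cd63, and that of Npc1 in 28-m against 20-m muscle. In 20-m muscle Pik3r4, the regulatory subunit of the Pik3c3 complex, gave 0.39 (adjusted p = 0.0283), lost without any 1 of 2-m replicates 1 and 2 and 20-m replicate 1 (adjusted p = 0.05 to 0.137), and Atg101, of the initiation complex (listed as 9430023L20Rik), -0.43 (adjusted p = 0.0385), lost without any 1 of 2-m replicates 1 and 2 and 20-m replicates 1 and 3 (adjusted p = 0.0847 to 0.126). Of 15 other lysosomal membrane proteins, 3 rose in 20-m muscle (20%, against 9.42% of all genes) and none was called in 28-m against 2-m muscle, where 3 had an unadjusted limma p under 0.05. Npc1, the cholesterol exporter of the lysosome, counted 2224, 1785 and 2177 (2-m muscle), 3080.4, 2796 and 2857 (20-m muscle) and 1896, 1996 and 1914 (28-m muscle), with 0.50 (adjusted p = 0.00332) in 20-m against 2-m and -0.59 (adjusted p = 0.0141) in 28-m against 20-m muscle, the latter lost without any 1 of 20-m replicates 1 and 3 and 28-m replicates 1, 2 and 3 (adjusted p = 0.0612 to 0.108). Tmem192 gave 0.57 (adjusted p = 0.0232) in 20-m muscle, lost without any 1 of 2-m replicate 1 and 20-m replicates 1 and 2 (adjusted p = 0.0844 to 0.101), and Cd63 0.28 (adjusted p = 0.0448), lost without any 1 of 2-m replicates 1, 2 and 3, 20-m replicates 1, 2 and 3 and 28-m replicate 1 (adjusted p = 0.051 to 0.172). Among 19 V-ATPase subunits, which acidify the lysosome, 3 rose (15.8%, against 9.42% of all genes) and 1 fell (5.26%, against 7.13%) in 20-m and 3 rose (15.8%, against 7.53%) in 28-m muscle. In 28-m muscle Atp6v1a, the catalytic subunit, gave 0.45 (adjusted p = 0.0045), Atp6ap2, an accessory protein, 0.57 (adjusted p = 0.0223), lost without any 1 of 2-m replicates 1 and 2 and 28-m replicate 3 (adjusted p = 0.0581 to 0.0894), and Atp6v1h 0.56 (adjusted p = 0.0386), lost without any 1 of 2-m replicates 1, 2 and 3, 20-m replicate 1 and 28-m replicates 1 and 3 (adjusted p = 0.0544 to 0.148); Atp6ap2 in 20-m muscle gave 0.51 (adjusted p = 0.0323), lost without any 1 of 2-m replicates 1 and 2 and 20-m replicates 1 and 3 (adjusted p = 0.0824 to 0.103).

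Of 40 lysosomal enzymes, 2 rose (5%, against 9.42% of all genes) and 7 fell (17.5%, against 7.13%) in 20-m muscle, and 4 rose (10%, against 7.53%) and 6 fell (15%, against 6.24%) in 28-m muscle; the difference of these shares from those of all genes was not tested. The 2 largest falls were osteoclast enzymes and are also in the bone marker list. Acp5, the tartrate-resistant acid phosphatase of osteoclasts, counted 749, 89.9 and 93.1 (2-m muscle), 16.8, 8.44 and 21.8 (20-m muscle) and 17.1, 31.8 and 34 (28-m muscle), and Ctsk, the collagen-degrading cathepsin K, 798, 291 and 285 (2-m muscle), 135, 79.3 and 126 (20-m muscle) and 192, 142 and 164 (28-m muscle). The marrow- and bone-marked library was the highest for both; without it, the 20-m change was -2.56 for Acp5 (adjusted p = 0.00735) in place of -3.57, and -1.37 for Ctsk (adjusted p = 0.00516) in place of -1.86. In 28-m muscle Acp5 gave -2.76 (adjusted p = 0.0188), lost without 28-m replicate 1 (adjusted p = 0.0787). DESeq2 called Acp5 at neither age, where a gene left without an adjusted p also counts as not called. In 28-m muscle Ctsk gave -1.29 (adjusted p = 0.0256), lost without any 1 of 2-m replicate 1 and 28-m replicates 1, 2 and 3 (adjusted p = 0.0541 to 0.0892). Without the marrow- and bone-marked library these 28-m changes were -1.75 for Acp5 (adjusted p = 0.047) and -0.80 for Ctsk (adjusted p = 0.0676). Galns, a sulfatase of keratan and chondroitin breakdown, rose from a low level, at 37.9, 38.8 and 39 (2-m muscle), 74.7, 77.6 and 105 (20-m muscle) and 79.7, 77.3 and 132 (28-m muscle) (1.12 (adjusted p = 0.0161) and 1.26 (adjusted p = 0.01)), the 20-m call being lost without 20-m replicate 3 (adjusted p = 0.0653). Both Galns calls were also lost with libraries scaled to equal sums and without the 3 libraries numbered 3.

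**Figure D5:**
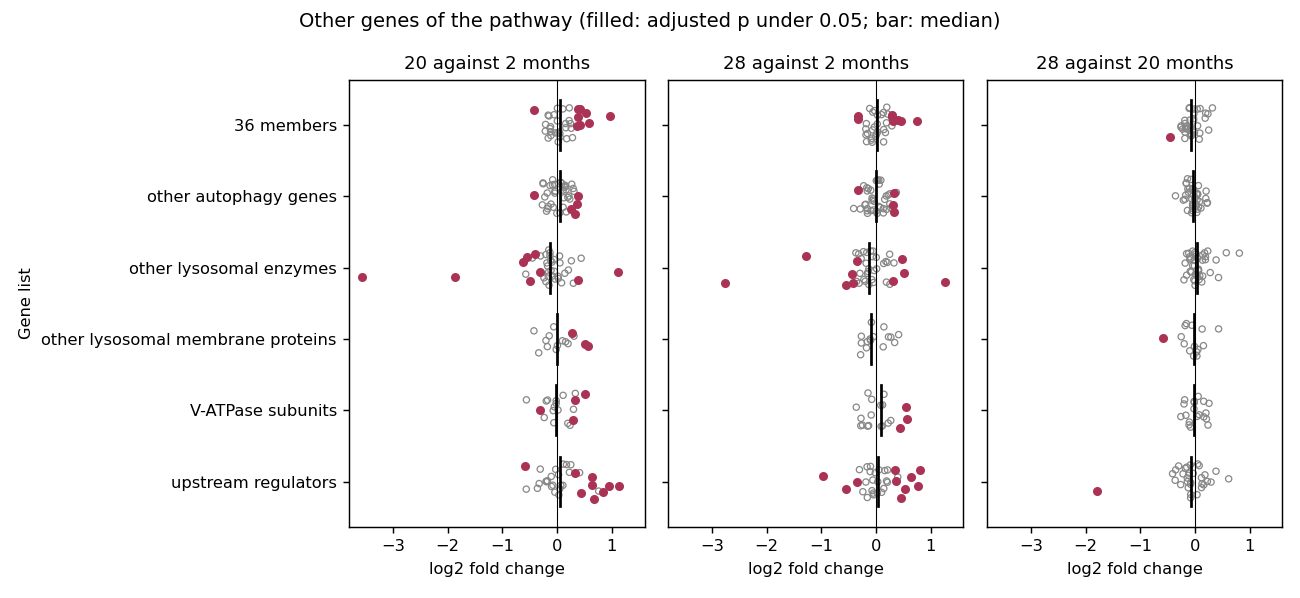
Log2 fold change of the 36 members and of the genes tested in 5 other lists of the pathway, in the 3 comparisons; each circle is a gene, filled red where its adjusted p was under 0.05, and the black bar is the median of the list (points are spread vertically for visibility). Acp5 and Ctsk lie at the far left of the lysosomal enzymes, Foxo1 at the right end of the upstream regulators at 20 months, and Ddit4 at the far left in 28-m against 20-m muscle.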

How the data were processed

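RNA-seq values for muscle were deposited as counts per gene divided by the size factor of each library (a signal scale, normalized counts): per the study's methods, the authors trimmed reads with Trim Galore, aligned poly(A) RNA reads to mm10 with Hisat2 (the submitters' processing notes name TopHat), counted them with htseq-count in intersection-strict mode on refSeq genes and normalized with DESeq2. MBD-seq signal in 500-base bins was deposited by the authors on the same kind of scale from Bowtie2 alignments counted with bedtools. The muscle MBD-seq columns do not name which of 2 rounds of capture they hold, and bins without a row were left out of window means.

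The 5 summary rows of unassigned reads, non-unique alignments among them (37.9% to 47.7% of a column) were left out. All nonzero values (100% within 0.001 reads) were whole multiples of 1 step per library, so the reads were recovered. Genes whose mean over the libraries reached 10 normalized counts entered limma 3.58.1 (trend) in R 4.3.3 on log2(normalized count + 1), all 9 libraries, age as the only term, Benjamini-Hochberg over 13178 genes. A fold change is on this scale and understates low genes. The p-values measure the spread between 3 mice per age. Count tests run on those reads (DESeq2 1.42.0, edgeR 4.0.16), other pseudocounts (0.1 and 5), filters, scalings, a replicate block and leaving out libraries were alternatives. On simulated counts for 20 against 2 months (13059 genes), 95% of 100 genes changed by 1 and 34% of 100 changed by 0.5 on the log2 scale were called, and 9 of 12859 unchanged genes.

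The members, gene lists, roles, markers and motifs were chosen with earlier results of these data known. Values were given in every library for each called member and for Ulk1, Becn1, Map1lc3a, Map1lc3b, Sqstm1, Bnip3, Pink1, Tfeb, Lamp1, Ctsb, Ctsd and Ctsl; of each other pathway list, the 3 genes with the largest change among those called were named. Start sites, lengths and promoters are from RefSeq (GRCm38.p6). The replicate numbers did not pair the libraries: deviations of same-numbered libraries correlated at over 0.1 for the number 3 alone.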

Additional observations from a re-analysis of the deposited data

How the results depend on the processing

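None of the 18 calls of single members reversed under the 22 alternatives, and 336 of 396 calls remained past the threshold. All 18 held with pseudocounts of 0.1 or 5, a minimum mean of 50, quantile normalization, a term for the libraries numbered 3 (which also called Rb1cc1, Nbr1 and Lamp2) and DESeq2; 17 held with no filter and 17 with edgeR, and 16 with only the 2 ages compared. The counts of members called (9, 8 and 1 in 20 against 2, 28 against 2 and 28 against 20 months) became 1, 1 and 0 when libraries were scaled to equal sums including Rn45s, whose share differed by over 2-fold between libraries. Without Rn45s in that sum, a setting chosen after seeing the data, they were 9, 7 and 0. That setting moved the share of all called genes that were higher from 54.7% to 66.8% at 28 against 2 months and from 56% to 74.1% at 28 against 20 months. Without the 3 libraries numbered 3 (2 per age) they were 5, 2 and 0, with lower power by construction. The rule of a fold over 2 called 0, 0 and 0. Leaving out 1 library gave 7 to 11, 3 to 10 and 0 to 1. Where replicate numbers entered as a replicate block the counts were 11, 9 and 2, the added members, all higher, being Rb1cc1 (adjusted p = 0.0286) and Nbr1 (0.0427) at 20 against 2 months, Lamp2 (0.0141) at 28 against 2 months and Map1lc3a (0.0457) at 28 against 20 months; over all genes the block moved calls from 2181, 1814 and 50 to 3000, 2529 and 138, and the numbers did not pair the libraries. Over all genes, without the libraries numbered 3 the calls were 1099, 712 and 11, with a same sum 586, 554 and 24, with DESeq2 2560, 2125 and 228. At gene starts, the numbers of members with any rise in MBD-seq signal stayed within 1.5 times under a wider window, a pseudocount of 0.25 and rescaled sums, but several numbers over 2-fold did not. With the wider window, members over 2-fold higher in muscle went from 19 to 12 at 28 against 2 months and from 3 to 0 at 20 against 2 months, members over 2-fold lower in muscle at 28 against 2 months from 3 to 1, and in T cells at 28 against 2 months 4 higher became 2 and 7 lower became 3. With rescaled sums the muscle numbers became 5 higher at 20 against 2 months and 1 lower at 28 against 2 months, and 2 were higher in T cells. With a pseudocount of 0.25, 5 were higher and 10 lower in muscle at 20 against 2 months and 13 lower in T cells. Low reads at starts (a median of 4.5 per member in 2-m muscle) limit what methylation differences can be seen.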
